A study of Mus musculus with 7 samples.

Results

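The origins described here were called in mouse embryonic stem cells (mESCs) under aphidicolin and met no peak in untreated cells. They were selected on measured values: the origin lists of the 3 conditions were merged where they shared at least 1 bp on chromosomes 1 to 19 and X, regions with rows of the aphidicolin list alone were taken, and only those that met no MACS peak in either untreated library were kept. This left 1749 of 46639 merged regions, called members below, out of 9017 APH-only regions. The other 7268 APH-only regions had a MACS peak in at least 1 untreated library although the untreated origin list did not hold them. Each member was 1 origin of the aphidicolin list.

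The study mapped origins by sequencing short nascent strands from 7 samples, which form 3 conditions with 2 libraries each and 1 Input that was not analysed here. APH libraries came from TetO-CDC6 mESCs, a line from a mouse with a doxycycline-inducible CDC6 transgene, given 0.5 µM aphidicolin for 2.5 h to cause mild replication stress. CDC6 libraries came from the same line given 1 µg/ml doxycycline for 30 h, which induces the transgene. WT means untreated, and WT 2 is the same transgenic line, while WT 1 is of a different mESC line and, per its description, had been submitted before. The WT group thus mixes 2 cell lines, and the untreated state of the transgenic line rests on 1 library. No label says whether replicate libraries came from different cultures. Spread between libraries of a group may thus be technical, and in WT it includes any difference between the 2 cell lines. The p-values measure that spread alone.

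Replication origins are licensed in G1 by loading of the MCM helicase, with ORC, CDC6 and CDT1 as loaders, and many more sites are licensed than fire in a normal S phase. The spare sites, called dormant origins, are passively replicated by passing forks unless those forks slow, in which case some of them fire. Aphidicolin inhibits the replicative DNA polymerases and slows forks. A new fork begins with a short RNA-primed strand, and λ-exonuclease digestion of size-selected single strands enriches such strands because the RNA primer protects them.

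Promoter sequences are shown first because active gene starts are known as frequent origin sites in mammalian cells, and few members lay there. Members met 12 of the 32619 RefSeq promoter windows (250 bases before to 50 bases after a start, GRCm38.p6). The windows of Nrg4 and Tcl1b4 were chosen because these genes are among the strongest gene-end members, Tcl1b2 because it lies in the same gene family, Plscr5 because it has the strongest of the 12, and Gm14273 because it holds a G-quadruplex motif. The last 3 were chosen after their values were seen. Sequences read 5′ to 3′ on the gene's strand, and capitals mark bases inside the member. An all-capital window lies wholly inside the origin.
Nrg4, chr9:55283576-55283875, minus strand: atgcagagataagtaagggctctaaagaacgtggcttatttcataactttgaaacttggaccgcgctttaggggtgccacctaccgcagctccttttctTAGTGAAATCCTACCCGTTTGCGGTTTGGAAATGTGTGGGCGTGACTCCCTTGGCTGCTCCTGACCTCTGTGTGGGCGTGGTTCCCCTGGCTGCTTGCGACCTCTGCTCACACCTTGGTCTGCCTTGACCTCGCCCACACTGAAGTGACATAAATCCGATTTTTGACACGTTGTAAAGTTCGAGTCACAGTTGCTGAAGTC
Plscr5, chr9:92192843-92193142, plus strand: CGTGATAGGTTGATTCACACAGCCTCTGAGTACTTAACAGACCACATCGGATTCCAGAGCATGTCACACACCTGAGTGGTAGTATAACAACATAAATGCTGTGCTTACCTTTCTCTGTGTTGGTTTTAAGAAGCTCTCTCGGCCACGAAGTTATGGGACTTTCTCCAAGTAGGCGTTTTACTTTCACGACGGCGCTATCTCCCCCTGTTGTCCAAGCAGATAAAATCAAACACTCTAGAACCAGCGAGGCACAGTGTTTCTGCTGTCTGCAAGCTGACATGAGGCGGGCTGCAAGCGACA
Tcl1b4, chr12:105202145-105202444, plus strand: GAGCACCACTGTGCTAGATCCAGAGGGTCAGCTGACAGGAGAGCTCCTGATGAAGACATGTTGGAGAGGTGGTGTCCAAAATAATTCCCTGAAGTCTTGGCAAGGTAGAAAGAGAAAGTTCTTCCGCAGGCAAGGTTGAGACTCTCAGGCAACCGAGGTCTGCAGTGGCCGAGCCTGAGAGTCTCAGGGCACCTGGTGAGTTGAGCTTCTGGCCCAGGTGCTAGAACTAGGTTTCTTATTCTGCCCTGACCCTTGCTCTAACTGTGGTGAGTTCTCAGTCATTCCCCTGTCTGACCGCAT
Tcl1b2, chr12:105146769-105147068, plus strand: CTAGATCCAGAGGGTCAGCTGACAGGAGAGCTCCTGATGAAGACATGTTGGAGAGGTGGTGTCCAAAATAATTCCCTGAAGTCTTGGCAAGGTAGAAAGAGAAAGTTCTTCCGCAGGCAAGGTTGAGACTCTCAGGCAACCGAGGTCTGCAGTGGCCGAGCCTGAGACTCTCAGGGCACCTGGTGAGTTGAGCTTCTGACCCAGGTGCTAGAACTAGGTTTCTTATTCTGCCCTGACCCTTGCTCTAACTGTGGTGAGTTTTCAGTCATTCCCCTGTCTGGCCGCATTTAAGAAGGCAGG
Gm14273, chr2:172324084-172324383, plus strand: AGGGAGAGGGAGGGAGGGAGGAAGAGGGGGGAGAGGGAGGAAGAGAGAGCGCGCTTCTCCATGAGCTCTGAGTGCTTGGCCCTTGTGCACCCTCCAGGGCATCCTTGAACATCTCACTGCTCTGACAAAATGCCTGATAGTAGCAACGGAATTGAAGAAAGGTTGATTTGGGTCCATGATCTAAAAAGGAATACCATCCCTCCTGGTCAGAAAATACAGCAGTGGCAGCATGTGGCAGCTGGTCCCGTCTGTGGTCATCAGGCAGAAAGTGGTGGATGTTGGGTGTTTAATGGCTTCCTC

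Nrg4 encodes a ligand of the ErbB4 receptor. Its member, chr9:55283222-55283776, covered 201 of the 300 window bases, and the authors' fold over a control was 2.84 in APH 1 and 2.91 in APH 2, with no MACS peak in the CDC6 or WT libraries. Plscr5 belongs to the phospholipid scramblase family, and the start of this window is an alternative one away from the ends in the gene table. Its member had a fold of 3.34 in APH 1, 3.94 in APH 2 and 2.73 in CDC6 2, with no peak in CDC6 1. Both sites were thus seen in the 2 APH libraries and in at most 1 other.

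Tcl1b4 and Tcl1b2 are members of the Tcl1 family, whose founder is a cofactor of the kinase AKT. The Tcl1b4 member had a fold of 3.04 in APH 1 and 3.03 in APH 2, with 3.19 in CDC6 1 and 2.63 in CDC6 2. The Tcl1b2 member had a fold of 2.44 in APH 1, 2.60 in APH 2 and 3.15 in CDC6 1, and no peak in CDC6 2. Their windows were 90.4% identical by a global alignment. In it, unpaired window ends count as differences, here and for the neighbours below. The 2 windows are offset from each other, so their shared bases are closer than this value. Reads may thus have been split between the copies, and both are uncertain. The windows of the family neighbours Tcl1b1, Tcl1b5, Tcl1b3 and Tcl1, with 72.3%, 73.5%, 59.8% and 48.8% identity to that of Tcl1b4, met no MACS peak in any of the 6 libraries.

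The other protein-coding windows met by members belonged to Rcan2, a regulator of the phosphatase calcineurin, and Slc5a7, the choline transporter of cholinergic neurons. The remaining 6 belonged to long noncoding RNAs. The 12 windows had a median GC content of 49.5% and a median of 4 CpG dinucleotides. The 208 windows met by the other APH-only regions had 58.7% and 11 CpG, the 6111 windows met by regions of all 3 lists 67.7% and 28, and all windows 53% and 7. A G-quadruplex motif, 4 runs of GGG separated by 1 to 7 bases of any kind on either strand, was present in 3 of the 12 windows (25%), in 49.5% of windows of the other APH-only regions, in 42.1% of those of all 3 lists, and in 18.7% of all windows. With 12 windows these shares are a description only. Of 1005 RefSeq miRNA hairpins, 0 met a member, and 107 met any merged region.

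Before any comparison, the labels need a remark. Each library had 2 deposited lists. The first has the layout of MACS2 peaks, and 4 of the second lists carried labels that went against it. All origins of the APH list were rows of the second list labelled CDC6 1, those of the WT list were rows of the second list labelled APH 1, and those of the CDC6 list were rows of the one labelled CDC6 2. The condition lists and the MACS lists were used as labelled. The second list labelled WT 2 met all members, and 97.6% of its rows met a MACS peak of APH 1, against 76.8% for WT 2. Read as labelled, it would leave 0 members. The second list labelled WT 1 met 490 members (28.0%) and 48.8% of the other APH-only regions. Restricting members to the 1259 outside it left 6.99% on X and 1.51% at gene ends.

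The MACS lists held 74540 peaks for APH 1 and 71435 for APH 2, 72384 for CDC6 1 and 82071 for CDC6 2, and 94747 for WT 1 and 81056 for WT 2. No read numbers were given, so sequencing depth is unknown, and precision is limited by these peak numbers. Silence therefore means no peak at the lists' q-value limit of 0.1. With WT peaks of −log10 q of at least 2 only, 2793 regions would be silent. The choice of WT library moved the number more, to 3673 regions silent in WT 2 and 4747 silent in WT 1. There is 1 list per condition, so shares of regions have no replicate error, and intervals below are 95% Wilson intervals for counting error only.

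Members were seen in both APH libraries, which the choice of an APH origin largely fixes. A MACS peak was present at 1748 of 1749 members in APH 1 and at all of them in APH 2. In CDC6 1, 569 members (32.5%, interval 30.4 to 34.8) had a peak, and in CDC6 2, 1003 (57.4%, interval 55.0 to 59.7). The other APH-only regions had a peak in CDC6 1 in 68.7% and in CDC6 2 in 62.2%. The members thus stood below the other APH-only regions in both CDC6 libraries, by far more in CDC6 1.

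**Figure D1:**
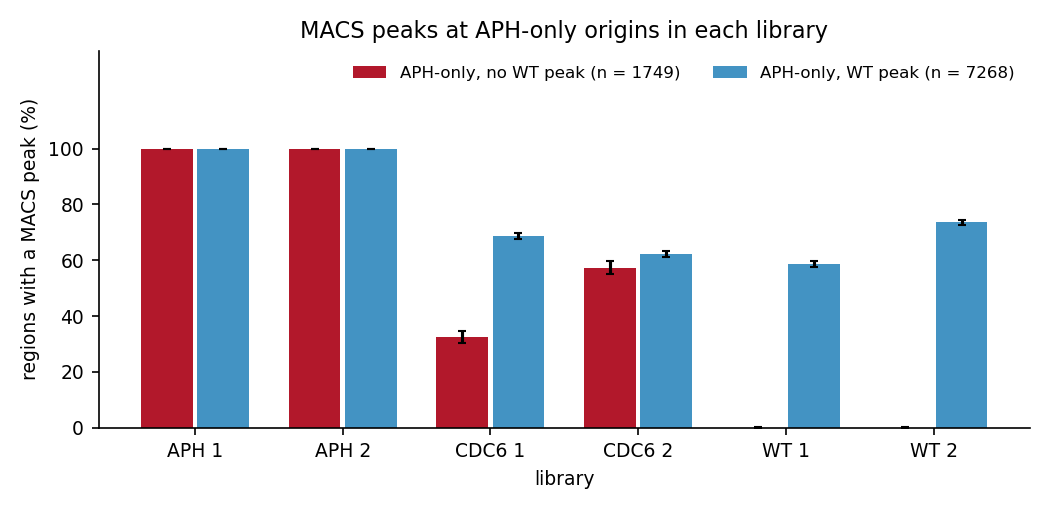
Bars give the share of APH-only regions (%) that met a MACS peak in each of the 6 libraries, for regions without a WT peak (red) and with one (blue), and error bars are 95% Wilson intervals. All but 1 of the regions without a WT peak were present in both APH libraries, 32.5% in CDC6 1 and 57.4% in CDC6 2, and the 0 in both WT libraries was set by the selection.

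Although the CDC6 origin list held none of them, 1196 members (68.4%) had a peak in at least 1 CDC6 library. Peaks in both were present at 376 (21.5%), in CDC6 1 alone at 193, in CDC6 2 alone at 627 (35.9%) and in neither at 553 (31.6%). Among the other APH-only regions, 46.4% had a peak in both and 15.5% in neither. By MACS peaks, the 553 members without any CDC6 peak were found under aphidicolin alone in these 6 libraries. The second list labelled WT 1 met some of them, such as the member in Ncald. Their median percentile rank was 53.0 in APH 1 and 47.3 in APH 2, against 63.5 and 59.5 for members with a peak in both CDC6 libraries. Of the 553, 11.9% were on X and 0.723% at a gene end, and members with peaks in both CDC6 libraries had 2.93% and 1.86%. Members with a peak in CDC6 1 alone had 6.22% and 3.11%, and in CDC6 2 alone 8.29% and 0.957%. The gene-end shares did not follow the number of CDC6 libraries and rest on 23 members in all. X held few CDC6 peaks of any kind (2.24% in CDC6 1, 2.73% in CDC6 2). Its share is thus not read as a trait of the 553. The CDC6 values rest on the library: at −log10 q of at least 2 the share with a CDC6 peak was 55.5%.

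The peaks at members were of middle rank among all MACS peaks of the APH libraries and low among APH origins. To grade strength, the peaks of a library were ranked by −log10 q as percentiles, a region took the rank of its best peak, and a region had to be strong enough to enter the APH list, so the values describe the selection. The median rank of members was 58.8 in APH 1 and 51.5 in APH 2 (mean 55.1 ± 5.17, SD, n = 2). The other APH-only regions had medians of 68.7 and 63.3, all regions with an APH origin 79.0 and 77.9, and regions held by all 3 lists 89.5 and 89.6. By the ratio of the list's 2 scores, whose meaning is not given, members sat at a median percentile of 19.7 of the APH list. The authors' fold over the control had a median of 2.75 in APH 1 and 2.56 in APH 2 at members, against 2.93 and 2.75 at the other APH-only regions. Members were 523 bp wide in the median (401 to 1258 bp), the other APH-only regions 547 bp. Where members had a CDC6 peak, its median rank was 29.6 in CDC6 1 and 48.6 in CDC6 2, against 48.0 and 53.0 for the other APH-only regions. The median member was therefore weaker than the median of these regions in all 4 libraries that had peaks there.

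**Figure D2:**
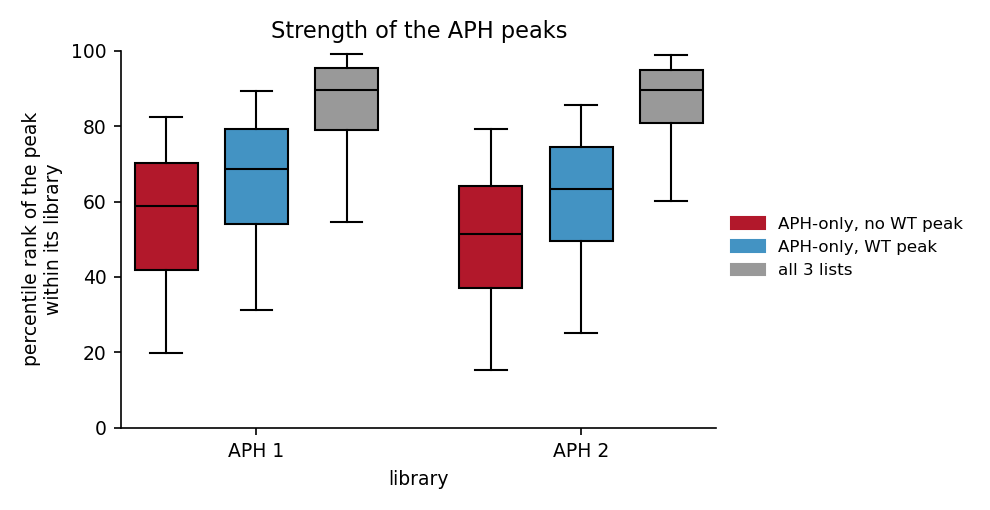
Boxes show, for each APH library, the percentile rank of the best peak in each region (line, median; box, quartiles; whiskers, 5th to 95th percentile). Members have medians of 58.8 and 51.5, below the other APH-only regions (68.7 and 63.3) and below regions of all 3 lists (89.5 and 89.6).

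The strongest member lay at chr2:93958972-93959558, with a fold of 4.67 in APH 1 and 4.94 in APH 2, with 4.83 in CDC6 1 and 2.42 in CDC6 2. It was 1871 bp from the nearest protein-coding gene and 1114 bp from a peak of WT 1. The next lay at one end of Wdr43, which encodes a nucleolar factor of ribosome production, with a fold of 4.37 in APH 1, 4.99 in APH 2 and 5.11 in CDC6 2 and no peak in CDC6 1. Peaks of WT 1 and WT 2 were only 183 bp and 314 bp away there. The next in strength, chr1:49018053-49018646, had a fold of 5.44 in APH 1 and 4.54 in APH 2 and no peak in any other library. It lay 1882036 bp from the nearest protein-coding gene, and the nearest WT peak was 27832 bp away. The member at chr7:65859309-65859832 had a fold of 4.38 in APH 1 and 4.35 in APH 2, with 3.77 in CDC6 1 and 5.07 in CDC6 2. Strong members thus ranged from shoulders of WT peaks to isolated sites, and 3 of these 4 had a peak in a CDC6 library.

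Silence was measured by the distance to the nearest WT peak. The median distance was 6930 bp for either WT library, 12551 bp for WT 1 and 11638 bp for WT 2. A WT peak lay within 500 bp of 108 members (6.18%), within 5 kb of 707 (40.4%), within 10 kb of 1092 (62.4%) and within 50 kb of 1696 (97.0%). The nearest origin of the WT list was farther, with a median of 57159 bp, and lay within 10 kb of 182 members (10.4%). Most members thus had an untreated peak within 10 kb and few had a listed untreated origin there. Untreated peaks were dense, with 94747 in WT 1 and 81056 in WT 2 over 2559 Mb. The share for other positions was not computed, so these shares are not read as a trait of members.

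**Figure D3:**
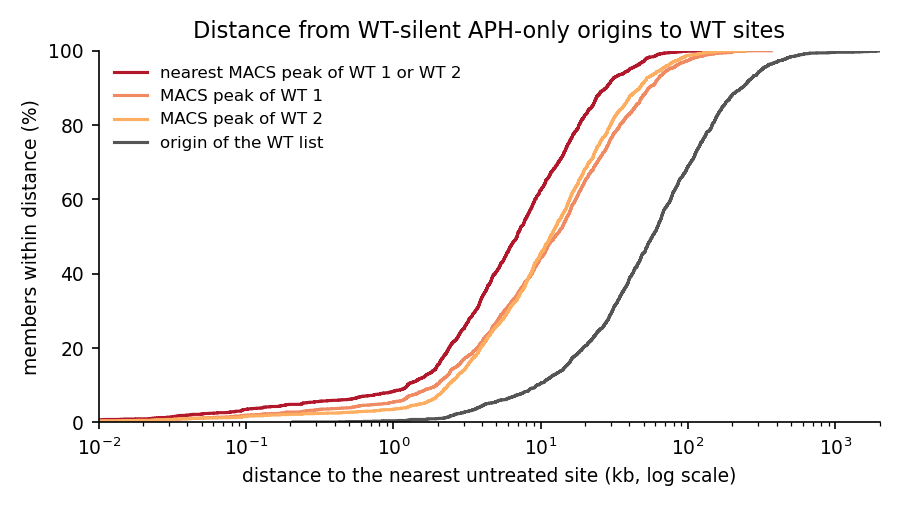
Curves give the cumulative share of the 1749 members (%) by distance in kb (log scale) to the nearest MACS peak of either WT library, of WT 1, of WT 2, and to the nearest origin of the WT list. Within 10 kb, 62.4% of members had a WT peak, and 10.4% had an origin of the WT list.

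At the limit of the selection, the 3 members closest to a WT peak were 0, 2 and 3 bp from it, at chr12:64755888-64756387, chr15:3741944-3742384 and chr5:111893174-111893711. The 3 regions just outside overlapped a WT peak by 1, 4 and 8 bp, at chr11:16117181-16117788, chr13:12692568-12693165 and, inside Mgmt, chr7:137033833-137034508. Mgmt encodes a methyltransferase that repairs alkylated guanine. The folds in APH 1 and APH 2 were 3.37 and 2.77, 3.08 and 2.50, and 3.05 and 2.75 inside, against 3.72 and 3.05, 3.50 and 3.47, and 2.74 and 2.73 outside. Such border cases were few: 60 members lay within 100 bp of a WT peak, 123 of the other APH-only regions were met over at most 100 bp, and 6138 were covered in full.

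The selection did not name positions relative to genes, but it removed regions by WT peaks and lists, which have positions of their own. The shares below thus contain the selection. The gene table gives no strand, so a gene end here means 1 kb around the first or last base of a protein-coding gene. There lay 23 members (1.32%, interval 0.878 to 1.97). The share was 5.52% for the other APH-only regions, 21.4% for all regions with an APH origin and 19.8% for all merged regions. Protein-coding gene bodies held 551 members (31.5%), 39.7% of the other APH-only regions and 52.6% of all merged regions, while these bodies make up 40.2% of the chromosomes. Gene deserts, gaps of at least 500 kb between protein-coding genes, held 622 members (35.6%), 26.8% of the other APH-only regions and 22.5% of all merged regions, and make up 30.2%. The median distance to the nearest gene end was 74745 bp for members and 36515 bp for the other APH-only regions.

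These positions depended on WT 1. When only WT 2, the untreated library of the transgenic line, was asked for silence, 5.12% of the 3673 silent regions and 4.42% of the other 5344 APH-only regions were at gene ends. Gene bodies then held 41.2% of silent and 36.04% of the other regions, and deserts 24.9% and 31.0%. All 3 differences thus ran the opposite way. When only WT 1 was asked, 1.22% of the 4747 silent and 8.57% of the other 4270 regions were at gene ends, gene bodies held 29.4% and 47.9%, and deserts 38.8% and 17.1%. The 2 WT libraries themselves differed: 15.9% of WT 1 peaks and 12.3% of WT 2 peaks lay at gene ends, and 17.5% and 27.6% in deserts. Cell line and library cannot be told apart here.

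**Figure D4:**
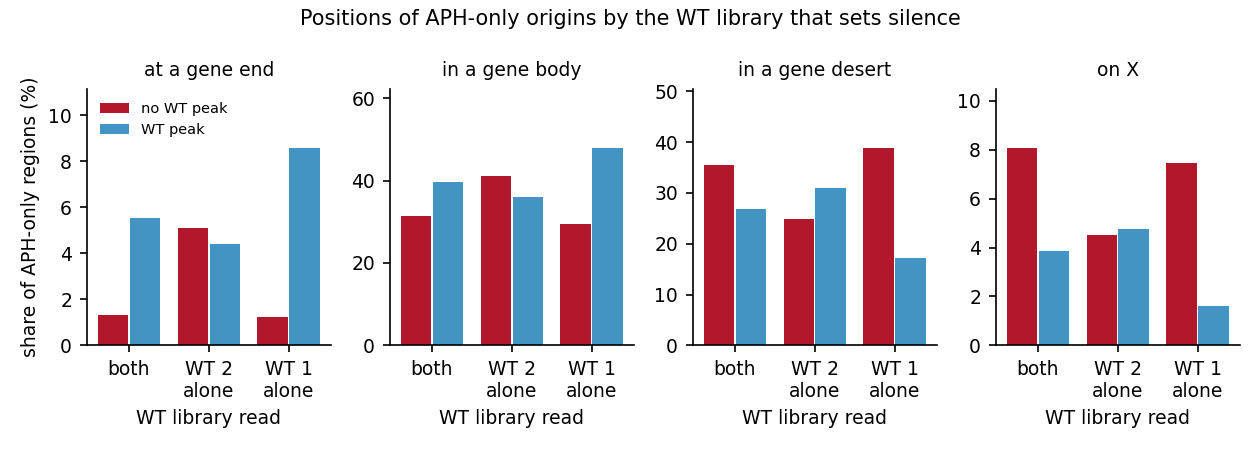
Bars give the share of APH-only regions (%) at a gene end, in a gene body, in a gene desert and on X, for regions without a WT peak (red) and with one (blue), when both WT libraries, WT 2 alone or WT 1 alone are asked for silence. With WT 2 alone the order of the colours turns in all 4 panels, for example 5.12% against 4.42% at gene ends.

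With silence in both WT libraries, the lower gene-end share of members was present in each of 4 bands of the mean rank over the APH libraries. Below rank 40, 2 of 384 members (0.521%) and 2.78% of 719 other APH-only regions were at gene ends. Between 40 and 60 it was 7 of 752 (0.931%) and 3.30%, between 60 and 80 it was 11 of 545 (2.02%) and 5.94%, and from 80 it was 3 of 68 (4.41%) and 10.53%. In the same bands, 10.7%, 8.51%, 5.32% and 10.3% of members were on X, against 6.82%, 4.97%, 3.09% and 1.97% of the other APH-only regions. Gene-end shares were higher in stronger bands in both classes, and members lay lower throughout.

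The strongest gene-end members fell at genes of varied roles. After Wdr43 came Rtl3, a retrotransposon-derived gene on X, with a fold of 4.78 in APH 1, 3.08 in APH 2 and 2.29 in CDC6 1. Gria2, an AMPA-type glutamate receptor subunit, had 3.26 in APH 1, 3.87 in APH 2 and 2.68 in CDC6 2. Kcnj6, a G-protein-gated potassium channel, had 3.16 in APH 1 and 2.93 in APH 2, with 2.27 in CDC6 1 and 3.14 in CDC6 2. The second list labelled WT 1 met the members at Rtl3 and Kcnj6, and not those at Wdr43 and Gria2. The WT peaks nearest to Rtl3, Gria2 and Kcnj6 were 16487, 28007 and 9362 bp away. Over all 23 gene-end members the median distance was 3243 bp, below the 6930 bp of all members.

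Cyp1a2, a liver cytochrome P450, had 2.77 in APH 1 and 3.26 in APH 2, with 3.17 in CDC6 1 and 3.43 in CDC6 2. Xkr9, of the XK-related family, had 3.57 in APH 1 and 2.62 in APH 2, with 2.37 in CDC6 1 and 3.10 in CDC6 2. Dhx34, an RNA helicase of nonsense-mediated decay, had 2.74 in APH 1 and 2.77 in APH 2, with 2.00 in CDC6 1 and 3.02 in CDC6 2. At Cyp1a2 both CDC6 libraries had a peak, although the CDC6 list did not hold the site. Gm5771 had 3.12 in APH 1 and 2.93 in APH 2, with 3.47 in CDC6 1 and 2.26 in CDC6 2, with a WT 2 peak only 25 bp away. The second list labelled WT 1 met this member, and not those at Cyp1a2, Xkr9 and Dhx34.

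Inside gene bodies, the strongest member lay in Tmc1, a channel of inner-ear hair cells, with a fold of 4.38 in APH 1 and 4.04 in APH 2 and no peak elsewhere. Ncald, a neuronal calcium sensor, had 4.53 in APH 1 and 3.55 in APH 2, and Dysf, which serves muscle membrane repair, had 3.98 and 3.58, both without a CDC6 peak. Mid2, an X-linked ubiquitin ligase, had 3.90 in APH 1, 4.00 in APH 2 and 3.59 in CDC6 1, with the nearest WT peak 54349 bp away. Of the 6 strongest body members, 3 had no MACS peak outside the APH libraries. Runx1, a master regulator of blood formation, had 3.30 in APH 1, 4.02 in APH 2 and 4.40 in CDC6 2, but a WT 1 peak lay 83 bp away. Tmtc1, an O-mannosyltransferase, had 4.45 in APH 1, 3.39 in APH 2 and 3.55 in CDC6 2. The second list labelled WT 1 met the members in Ncald, Mid2, Runx1 and Tmtc1, and not those in Tmc1 and Dysf.

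More than 500 kb from any protein-coding gene, the 2 strongest after the chromosome 1 site were chr3:150505741-150506219 and chr12:48795478-48796098. The chromosome 3 site had a fold of 4.06 in APH 1, 4.35 in APH 2 and 3.01 in CDC6 2, with WT 1 and WT 2 peaks 254 bp and 195 bp away. The chromosome 12 site had 3.97 in APH 1 and 3.77 in APH 2 with no CDC6 peak, and its nearest WT peak was 9729 bp away. The second list labelled WT 1 met the chromosome 3 and chromosome 12 sites, and not the chromosome 1 site. The chromosome 3 site was thus far from genes yet close to WT peaks. Over all members, the median distance to the nearest WT peak was 8164 bp in gene deserts and 6130 bp outside them.

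A larger part of long genes than of all genes held a member. Bodies of at least 300 kb held 226 members (12.9%), 9.44% of the other APH-only regions and 9.49% of all merged regions. Among regions without a WT peak, they held 14.85% of those in both the APH and CDC6 lists. For regions of the CDC6 list alone without a WT peak it was 13.17%, so the share was not particular to members. Of the 557 protein-coding genes of that length, 166 (29.8%) held a member, against 494 of all 21631 (2.28%) when 1 kb beyond the ends is included. The density was 0.709 members per Mb in genes of at least 300 kb, 0.539 per Mb over all protein-coding genes and 0.683 per Mb over all chromosomes. Of 20 mouse orthologues of genes at common fragile sites, which break under aphidicolin in human cells, 11 held members, and so did 11 of 21 long neuronal genes. Their densities were 0.626 and 0.720 per Mb, near that of the chromosomes as a whole, and the lists were chosen with earlier results of these data known.

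Lrp1b, an endocytic receptor of the LDL receptor family and a human fragile-site gene, held 6 members, more than any other gene. Its 2058 kb held 23 regions with an APH origin and 8 WT origins. MACS peaks there numbered 49 in APH 1, 42 in APH 2, 27 in CDC6 1, 42 in CDC6 2, 31 in WT 1 and 50 in WT 2. In these unscaled counts WT 2 had more peaks in Lrp1b than either APH library. WT 2 also had more peaks in all, with 81056 against 74540 in APH 1 and 71435 in APH 2. The 6 members lay in a gene with many untreated peaks.

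Dpp10, an auxiliary subunit of potassium channels, and Cadm2, a neuronal adhesion protein, held 4 members each. Dpp10 had 25 peaks in APH 1, 24 in APH 2, 16 in CDC6 1, 27 in CDC6 2, 13 in WT 1 and 24 in WT 2. Cadm2 had 19 peaks in APH 1, 20 in APH 2, 16 in CDC6 1, 23 in CDC6 2, 12 in WT 1 and 19 in WT 2. In both genes WT 1 was the lowest library and WT 2 equalled an APH library, by counts not scaled to the libraries' totals. Nav3 (neuron navigator 3), Cacna2d3 (a calcium channel subunit), Dscam (a neuronal adhesion receptor) and Frmd4a held 3 each. Among the other fragile-site orthologues, Pde4d and Dlg2 held 2, and Fhit, Naaladl2, Nbea, Dab1, Cntnap2, Tenm3, Wwox and Dmd 1. Dgkb, Nrxn3 and Astn2 of the long neuronal list held 2.

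Several lists of mostly short genes held none. No member lay in or within 1 kb of the 18 genes of the ATR checkpoint and fork protection, the 26 of origin licensing and firing, the 17 of pluripotency, the 85 ribosomal protein genes or the 39 Hox genes, which together span little sequence (0.300 to 0.675 Mb a list). Regions with an APH origin of any class were present at 12, 10, 10, 19 and 22 of these genes. Of 1110 olfactory receptor genes 0 held a member and 21 any APH region, and of 353 vomeronasal receptor genes 2 did, Vmn2r91 and Vmn2r92, whose close copies make them uncertain. Of 397 Zfp genes, 6 held a member. These lists span 2.13, 3.64 and 13.4 Mb, and their densities were 0, 0.550 and 0.447 members per Mb, against 0.539 per Mb over all protein-coding genes, of which 2.28% held a member.

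To ask whether the sites with most members gained peaks as a whole, the number of MACS peaks was tested in 1 Mb bins and in gene bodies of at least 50 kb, with limma on log2(number + 1) across all 6 libraries and Benjamini-Hochberg adjustment. No bin was called (0 of 2545, 0%, with 54 at an unadjusted p under 0.05) and no long gene (0 of 1619, 0%, with 61). Members therefore cannot be read as standing in called bins. In Lrp1b the log2 difference APH minus WT was 0.46 ± 0.35 (SE, limma adjusted p = 0.971), and 0.29 once peaks at members were left out. The difference was 0.70 in Dpp10, 0.59 in Cadm2, 0.57 in Nav3, 0.56 in Frmd4a, 0.32 in Dscam and 0.00 in Cacna2d3, with limma adjusted p of at least 0.971. Genes and bins were picked for their members, whose peaks are in APH and not in WT by the rule, so these differences contain the selection. With peaks at members left out they were 0.48 in Dpp10, 0.31 in Cadm2, 0.39 in Nav3, 0.28 in Frmd4a, -0.12 in Dscam and -0.35 in Cacna2d3. By the rule this step takes no peak from WT. It pushes the difference down where members are many, so these values are not free of the selection either. The counts of calls depended on WT as well. With 1 WT library left out, the lone WT sample is assumed to vary like the other groups. Without WT 1, 43 bins and 104 long genes were called, and without WT 2, so against WT 1 alone, 994 bins and 277 long genes. The directions differed, with 76 long genes higher and 28 lower in APH without WT 1, and 94 higher and 183 lower without WT 2.

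Members were spread thinly. A bin held 1 member in 814 cases, 2 in 291, 3 in 88, 4 in 21 and 5 in 1, and another member lay within 10 kb of 44 members (2.52%). The bin with 5 was at 85 to 86 Mb of chromosome 3, around Fam160a1, Gatb, Glt28d2, Prss48 and Sh3d19, with 21 peaks in APH 1, 19 in APH 2, 27 in CDC6 1, 26 in CDC6 2, 40 in WT 1 and 25 in WT 2. The APH libraries were the lowest there, with a log2 difference of -0.38 ± 0.26 (SE, limma adjusted p = 0.997), and -0.75 with peaks at members left out. At 95 to 96 Mb of chromosome 10, around Cradd, Eea1, Mrpl42, Nudt4, Socs2 and Ube2n, 4 members stood beside 36 peaks in APH 1 and 34 in APH 2, with 37 in CDC6 1 and 41 in CDC6 2, and 52 in WT 1 and 30 in WT 2 (log2 difference 0.09 ± 0.24, SE, limma adjusted p = 0.997). Without peaks at members that difference turned to -0.05. Over the 110 tested bins with 3 or more members the median log2 difference was 0.18, and -0.03 with peaks at members left out. All bins had a median of 0.04, and 0.03 without member peaks. Falls in bins rich in members are set by the selection, since no WT peak met a member.

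The X chromosome held 141 members (8.06%, interval 6.88 to 9.43), against 3.85% of the other APH-only regions, 3.42% of all regions with an APH origin and 3.03% of all merged regions, with 6.44% of chromosome length. Of the 421 APH-only regions on X, 33.5% were members, against 18.7% of the 8596 on autosomes. Members on X were also farther from untreated peaks, with a median of 16304 bp against 6443 bp on autosomes. Fewer of them had a CDC6 peak, 16.3% in CDC6 1 and 44.7% in CDC6 2 on X, against 34.0% and 58.5% on autosomes. Peaks were sparse on X as a whole, which held 1.75% of WT 1, 3.30% of WT 2, 2.24% of CDC6 1 and 2.73% of CDC6 2 peaks. Values for other regions on X are not given here, so these 2 differences are not read as traits of members.

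Chromosome 8 stood at the other end, with 51 members (2.92%) and 5.56% of the other APH-only regions, so that 11.2% of its APH-only regions were members. Chromosomes 11 and 4 followed with 12.8% and 14.5%. In WT 1, 8.26% of peaks lay on chromosome 8, against 4.86% to 5.53% in the other 5 libraries, and 1.75% on X, against 2.24% to 4.15%. With silence in WT 2 alone, X held 4.52% of silent and 4.77% of the other APH-only regions, and chromosome 8 held 5.28% and 4.88%. With silence in WT 1 alone, X held 7.44% and 1.59%. The high X share and the low chromosome 8 share of members were thus present with WT 1 and absent with WT 2 alone.

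**Figure D5:**
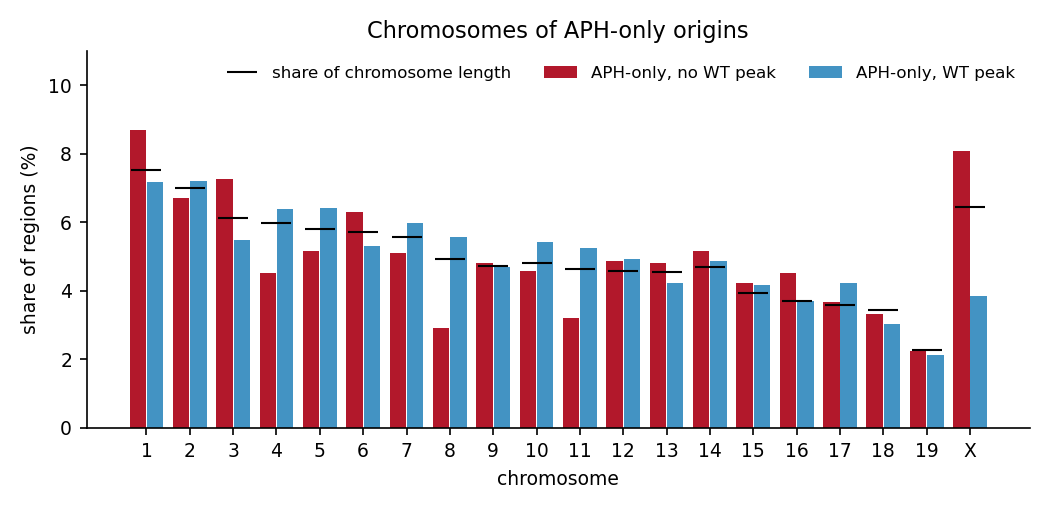
Bars give the share of APH-only regions (%) on each chromosome, for regions without a WT peak (red) and with one (blue), and black marks give the chromosome's share of the total length. X holds 8.06% of members and 3.85% of the other APH-only regions, and chromosome 8 holds 2.92% and 5.56%.

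Whether APH libraries had more peaks on X outside the members was tested on peaks that met no member. X held 4.06% and 3.44% of these peaks in APH 1 and APH 2, 2.228% and 2.69% in CDC6 1 and CDC6 2, and 1.75% and 3.30% in WT 1 and WT 2. The APH libraries averaged 3.75% ± 0.433 and the WT libraries 2.53% ± 1.10 (SD, n = 2 each), a difference of 1.22 percentage points (exact two-sided permutation p = 0.333, the smallest that 6 splits allow, adjusted p = 0.667 over 4 tests). Leaving out WT 1 gave 0.446 points, and leaving out WT 2 gave 2.00 points. Dropping peaks at members takes none from WT by the rule, so these shares are not free of the selection. With all peaks kept, the APH minus WT difference was 1.325 points. Against the other 4 libraries, with 2.49% ± 0.662 (SD, n = 4), the difference was 1.26 points (exact two-sided permutation p = 0.133 with a smallest possible p of 0.0667, adjusted p = 0.533). Both APH libraries lay above the other 4. At gene ends the APH libraries averaged 14.8% ± 1.47 and the WT libraries 14.1% ± 2.56 (SD, n = 2 each; difference 0.743 points, exact two-sided permutation p = 1, adjusted p = 1), and without WT 2 the difference was -1.07 points. None of these tests could reach 0.05 by design, so they do not decide whether the shares differ.

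Regions silent in WT but called under CDC6 gave a further comparison. The 485 regions held by both stress lists without a WT peak lay at gene ends in 2.68%, in deserts in 35.3% and on X in 4.95%. The 1952 regions of the CDC6 list alone without a WT peak had 3.84%, 28.3% and 3.18%. Members had 1.32%, 35.6% and 8.06%. The median distance to the nearest WT peak was 6930 bp for members, 8345 bp for regions of both stress lists and 5384 bp for those of CDC6 alone. The desert share of members was close to that of regions of both stress lists, and their X share was above that of both classes. With 1 list per condition these differences were not tested.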

How the data were processed

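Short nascent strand libraries of 3 conditions, 2 each, were analysed. The submitters' processing notes name MACS2 2.0.10, BWA 0.7.10, Picard 1.107, bedtools 2.23.0, SAMtools 0.1.19 and FastQC, and the builds mm10, GRCm38 and mm9, with no settings. Coordinates are on mm10 (GRCm38), which the chromosome ends fit. The first deposited list of a library has the MACS2 layout and holds the authors' score, fold ratio over the control, −log10 p-value and −log10 q-value per peak. The second deposited lists and the condition lists hold 2 scores per region, whose meaning is not given. Scores and folds served to rank and describe peaks inside 1 list.

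Members and gene lists were chosen with earlier results of these data known. Named regions were the 4 strongest members by mean APH rank, the 10 strongest at gene ends, the 6 strongest in gene bodies and the 3 strongest over 500 kb from genes. Named genes and bins were the 8 genes and 5 bins with most members, and the list genes with most members; some of these are not reported here. Genes, promoters and miRNAs came from RefSeq tables of GRCm38.p6, matched by coordinates. Peaks were counted by midpoint in bins and genes with a mean of at least 5 and scaled to the mean total. The counts were tested in R 4.3.3 with limma 3.58.1 (lmFit, then eBayes with trend, all 6 libraries). A run on simulated counts had counting noise only, with no spread between cultures or cell lines. It therefore does not show the power of the test on these data. Shares of peaks were compared by exact permutation with scipy 1.17.1. The splits by WT library, strength band and CDC6 peak were added after seeing the data. Same-numbered libraries correlated at -0.518 between APH and WT, -0.293 between APH and CDC6 and 0.282 between CDC6 and WT. With 2 numbers per group and signs that differ, the numbers were not taken to pair samples. GC content of members needs a genome, none was used here, and it was not run.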

Additional observations from a re-analysis of the deposited data

Results flagged for a closer look

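Data outside the main comparisons held an overlap of members with the second deposited lists labelled WT. The second list labelled WT 1 met 28.0% of members, and the second list labelled WT 2 met 100% of them. The list labelled WT 2 also met 100% of the 31572 regions with an APH origin, so its value is not particular to members. Of its rows, 97.6% met a MACS peak of APH 1 and 76.8% one of WT 2. The labels of the second lists of WT 2, both APH libraries and CDC6 1 went against the MACS lists, so the values are given as labelled and their origin was not tested.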

How the results depend on the processing

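Over 11 results, 69 alternatives were run, of which 22 moved the value or count past its limit, 3 turned its sign and 44 did neither. Among the 44 are values of the APH minus WT difference in X peaks that range from 0.446 (without WT 1) to 2.00 points (without WT 2), against 1.22. The number of members was 2793 with WT peaks of −log10 q of at least 2, 0 with the second lists as labelled, and 3673 (without WT 1) to 4747 (without WT 2) with 1 WT library. The share with a CDC6 peak was 55.5% at −log10 q of at least 2 and 32.5% to 77% with a library left out. The gene-end share was 7.55% at 5 kb and 1.22% to 5.12% with 1 WT library. The gene-body share was 41.6% with all RefSeq genes and 29.4% to 41.2% with 1 WT library, and the X share 4.52% to 7.44%. The median distance to a WT peak was 10781 bp at −log10 q of at least 2 and 11638 to 12551 bp with 1 WT library. Called bins numbered 0 to 994 and long genes 0 to 277 with a library left out, the counts above 0 coming without WT 1 (43 and 104) or without WT 2 (994 and 277), where the lone WT library is assumed to vary like the other groups. The APH minus WT difference in gene-end peaks was -1.53 points with equal numbers of strongest peaks and -1.07 to 2.56 with a library left out. The causes were not tested. With the replicate number as a block (replicate block), 0 bins and 0 long genes were called, and with crossed numbers, added after seeing the data, also 0 and 0. The restriction to members outside the second list labelled WT 1 was likewise added after seeing the data. Unknown depth limits what the absence of a peak can show.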
